A study of Mus musculus with 18 samples.

Results

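Among the RAD21 sites called in pooled samples of resting, 48 h-stimulated and 96 h-stimulated B cells alike, 1518 had a peak in at most 5 of the 9 replicates. They made up 63.7% of the 2382 sites found at all 3 time points and 9.67% of the 15705 sites of the pooled lists. The sites were chosen by measured values, namely the peak calls themselves. Pooled peaks that shared 1 bp were joined into 1 site, and a replicate counted as support when 1 of its peaks overlapped the site by 1 bp. They are called weakly supported shared sites here, and the other 864 shared sites, with peaks in 6 or more replicates, better supported shared sites.

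RAD21 was immunoprecipitated from splenic B cells of C57BL/6 mice (C57BL/6J in the study's methods) aged 8 to 10 weeks, without any genetic change. The cells were either left resting (0 h) or stimulated, over 48 h or 96 h, by 50 µg/ml LPS, a component of bacterial cell walls, and 2 ng/ml IL-4, a cytokine that directs class switching to IgG1. At 96 h the study enriched IgG1-positive cells by negative selection, so culture time and cell selection cannot be told apart at that time point. Each time point had 3 replicates, each made from the cells of 12 mice, and 1 list called on their merged reads. Peak lists hold no expression values, so the identity of the cells could not be checked against marker genes. One library, replicate 2 at 48 h, stood apart from the others in the position of its peaks. Several results, such as replicate support and motif shares, are given with and without its peaks. The pooled 48 h list, which includes its reads, was not called again without it.

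RAD21 is the kleisin subunit of cohesin, the ring-shaped complex that holds sister chromatids together and extrudes loops of chromatin in interphase. Loop extrusion stops at CTCF, a zinc finger protein that binds a long motif in a given orientation, and most cohesin peaks of mammalian cells therefore lie at CTCF motifs. In B cells, cohesin and CTCF shape the immunoglobulin loci and fold genes of B cell identity together with their enhancers.

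A motif of 20 bases was learned from 479 better supported shared sites on the odd-numbered chromosomes, and none of the weakly supported sites was used for it. Its consensus, TGGCCACTAGGGGGCACCAG, is that of CTCF. The best matches of a few sites are given with 5 bases on each side, 5′ to 3′ along the strand named, with positions in mm9. The match is in capitals. They were picked to show the element at sites with high pooled scores, at sites with no replicate peak and at B cell genes.
Upstream of Idh2, 4 replicates, chr7:87285839-87285868, plus strand: gccgaGAGCCAGAAGGTGGCAGTGTctacc
Ssh2 intron 1, 5 replicates, chr11:77122241-77122270, minus strand: acagaTCTCCAGTAGAGGGCAGACAagtca
Upstream of Etv6, 5 replicates, chr6:133910890-133910919, plus strand: ggataTGCCCAGTAGGTGGCAGCAGgagat
Upstream of Rpl38, 0 replicates, chr11:114497823-114497852, minus strand: acattCAGCCACTAGATGTCAGTGTttctt
Mettl8 intron 1, 0 replicates, chr2:70877989-70878018, minus strand: ggagaTGCCCAGCAGAGGGCGGGAGagctt
Downstream of Selplg, 3 replicates, chr5:114265947-114265976, minus strand: gtgaaCAGCCACCAGGGGGCGCCAGccacc
Sfpi1 intron 2, 4 replicates, chr2:90941732-90941761, minus strand: gacctGAGCCACCAGGGGGAGCCCTcctca
Pax5 intron 5, 4 replicates, chr4:44685544-44685573, plus strand: tgcaaCCAACACCTGGGGGCACTGTtgttc
Tnfaip3 start, 5 replicates, chr10:18735263-18735292, plus strand: gccgcCGACCGGCAGAGGGCGCTCTaagcc
Upstream of Birc3, 6 replicates, chr9:7897728-7897757, minus strand: gttcaTCGCCACTAGATGGCAGTGCtcact
The Birc3 site is the comparison, a better supported shared site just beyond the limit of 5 replicates. The number of the 20 bases equal to the consensus was 16 at Selplg and Etv6, 13 at Birc3, Mettl8 and Sfpi1, 12 at Ssh2, 11 at Idh2, Rpl38 and Pax5, and 10 at Tnfaip3. One further site of high pooled score, at the first exon of Fanci, a gene of DNA crosslink repair, had no match. Its window held a run of 72 bases with a unit of 4, of which the first 30 are shown in capitals throughout.
Fanci exon 1, 4 replicates, chr7:86536845-86536874, plus strand: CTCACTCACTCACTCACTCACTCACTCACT

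Most of the weakly supported shared sites had replicate peaks at more than 1 time point. At least 1 replicate held a peak at 1393 sites at 96 h (91.8%), at 1101 sites in resting cells (72.5%) and at 890 sites at 48 h (58.6%). Of all 15705 sites, the percentages were 58.3, 25.9 and 29.5, respectively. All 3 time points had a replicate peak at 586 sites (38.6%), as did 830 of the better supported sites (96.1%) and 10.2% of all sites. The next most frequent pattern, at 442 sites (29.1%), was support from resting and 96 h-stimulated cells and from no replicate at 48 h. That pattern was seen at 31 of the better supported sites (3.59%) and at 11.4% of all sites. The replicate calls chose the sites, so these shares are a description. A further 218 sites were supported at 48 h and 96 h, 147 at 96 h only, 48 in resting cells and at 48 h, 38 at 48 h only and 25 in resting cells only. At 14 sites no replicate held a peak, although all 3 pooled lists did. In total, 628 sites (41.4%) were listed as shared with no replicate peak at 48 h, 417 (27.5%) with none in resting cells and 125 (8.23%) with none at 96 h. Without replicate 2 at 48 h, 780 sites (51.4%) had a replicate peak at that time point and 738 (48.6%) had none. The time point with the most replicates was 96 h at 783 sites (51.6%), resting cells at 153 and 48 h at 75, while 493 were tied.

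**Figure D1:**
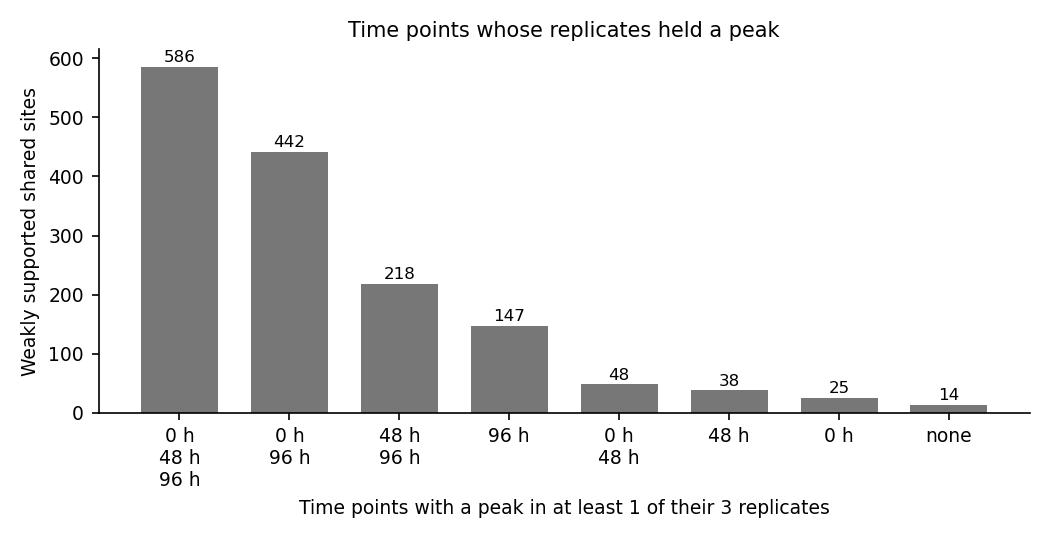
Number of weakly supported shared sites (y axis) for each combination of time points with a peak in at least 1 of their 3 replicates (x axis). The tallest bar is the 586 sites supported at all 3 time points, followed by the 442 supported in resting and 96 h-stimulated cells only.

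In single replicates, the number of these sites with a peak ranged widely within each time point. Replicates 1, 2 and 3 of resting cells held 521, 126 and 914 of them (34.3%, 8.30% and 60.2%), against 13.2%, 5.21% and 22.1% of all sites. At 48 h the numbers were 428, 166 and 445 (28.2%, 10.9% and 29.3%), against 9.61%, 15.7% and 9.79% of all sites. At 96 h they were 562, 896 and 1293 (37.0%, 59.0% and 85.2%), against 17.8%, 28.9% and 52.7%. Replicate 2 at 48 h was the one library in which the percentage of these sites lay below that of all sites. The shares at 96 h lay above each share at 48 h, whereas the range of resting cells overlapped both.

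The mean share was 34.3% ± 26.0 in resting cells, 22.8% ± 10.3 at 48 h and 60.4% ± 24.1 at 96 h (SD, n = 3 each). The replicate peak calls chose the sites, so these shares and the numbers per list are given as a description without a test. The widest gap between the means was 37.6 percentage points, between 96 h and 48 h. The lists differed in length, from 821 peaks in resting replicate 2, which had the lowest share, to 8579 in replicate 3 at 96 h, which had the highest. Replicate 2 at 48 h had 5254 peaks and the second lowest share. With each replicate list limited to its 821 highest-scoring peaks and the sites chosen again, 2177 of the 2382 shared sites were weakly supported. For this larger set the difference between 96 h and 48 h was 0.40 percentage points.

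**Figure D2:**
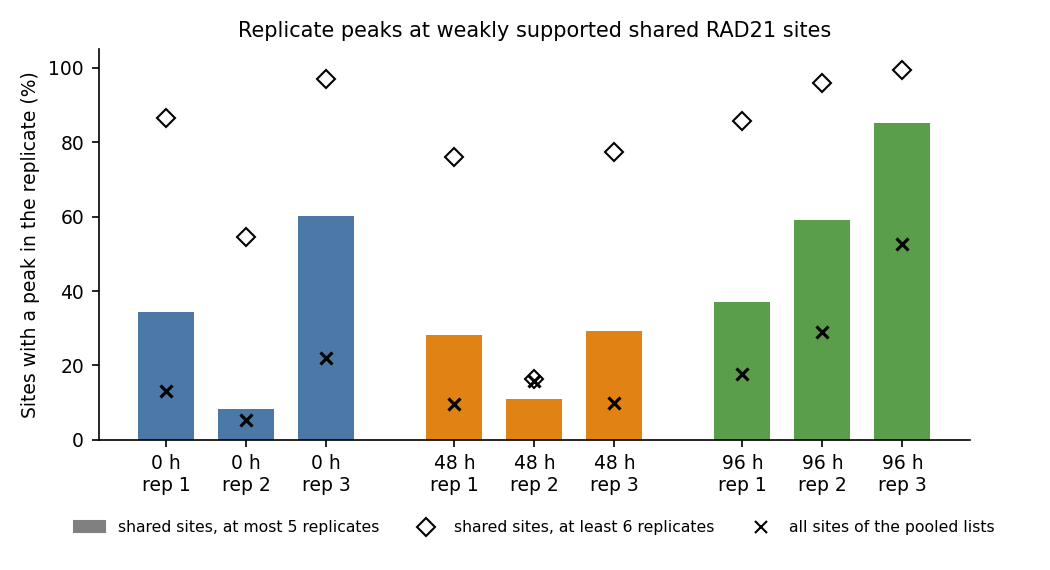
Percentage of sites with a peak in each replicate (y axis) for the 9 replicates (x axis, by time point): bars are the 1518 weakly supported shared sites, diamonds the 864 better supported ones and crosses all 15705 sites. Bars reach from 8.30% in resting replicate 2 to 85.2% in 96 h replicate 3. In 48 h replicate 2 the bar lies below the cross.

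Relative to the length of a list, the time points overlapped. There were 24.8, 15.3 and 25.5 weakly supported shared sites per 100 peaks in the resting replicates, 27.8, 3.16 and 28.5 at 48 h, and 20.0, 19.7 and 15.1 at 96 h. The low value belonged to replicate 2 at 48 h. The means were 21.9 ± 5.70, 19.8 ± 14.4 and 18.3 ± 2.77 (SD, n = 3 each). Without replicate 2 at 48 h the mean of that time point was 28.1.

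The peaks of these sites lay in the middle of most replicate lists by score. As the statistic behind the score is not named, scores were ranked within each list and given as percentiles. The median percentile was 44.6, 38.5 and 54.7 in the resting replicates and 52.3, 55.5 and 67.6 at 96 h. At 48 h it was 45.9 in replicate 1 and 51.0 in replicate 3, but 93.0 in replicate 2. The means were 45.9 ± 8.17, 63.3 ± 25.8 and 58.5 ± 8.07 (SD, n = 3 each; exact permutation test, p = 0.504). Without replicate 2 the mean at 48 h was 48.5 (exact permutation test over the 8 others, p = 0.207). In that library the order of the classes was also turned. The better supported shared sites had a median percentile of 28.6 there, against 61.8 to 89.5 in the other 8 replicates, where they lay above the weakly supported sites.

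**Figure D3:**
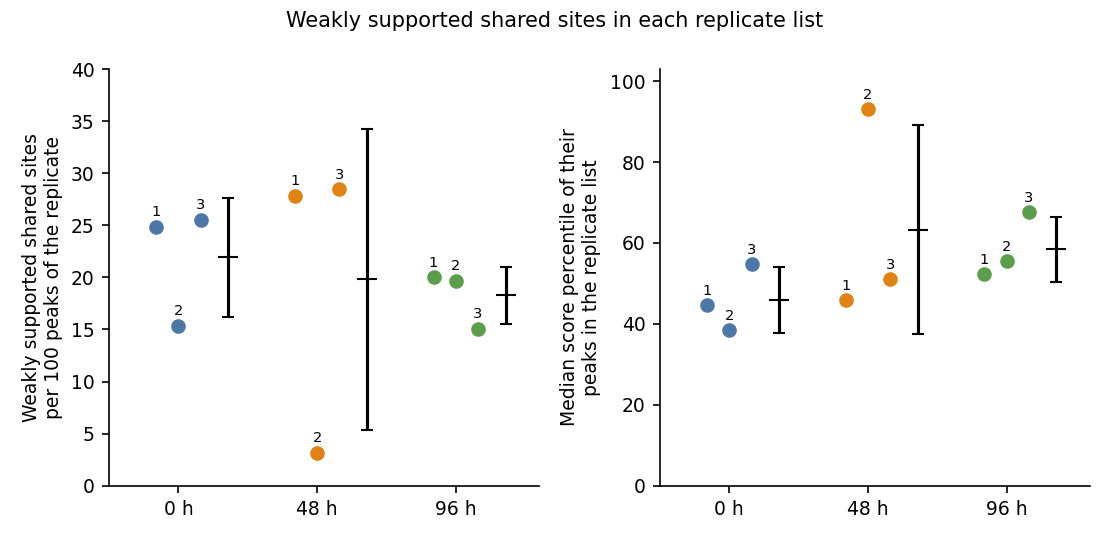
Weakly supported shared sites per 100 peaks (left) and the median score percentile of their peaks (right) in each replicate list, by time point. Points are replicates with their number, and black marks give the mean ± SD of 3. Replicate 2 at 48 h lies apart in both panels, at 3.16 sites per 100 peaks and at percentile 93.0.

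Replicate 2 at 48 h also differed in where its peaks lay. Of its 5254 peaks, 52.7% overlapped no site of any pooled list, compared with 0.122% to 3.52% in the other replicates. It supported 166 of the weakly supported shared sites (10.9%), and 21 of these were supported by no other replicate.

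These 166 sites differed in sequence from the other 1352. On the chromosomes not used to learn the motif, 19 of the 85 sites with a peak in replicate 2 at 48 h had a CTCF motif match (22.4%, exact binomial 95% interval 14.0 to 32.7). Among the weakly supported sites without such a peak, 555 of 594 had one (93.4%, 91.1 to 95.3). Tandem repeats, counted from a length of 20 bases and with units no longer than 4, were found at 85 of the 166 sites (51.2%, 43.3 to 59.0) and at 34 of the 1352 (2.51%, 1.75 to 3.497). In windows 1 kb from the weakly supported sites, tandem repeats were found at 8.30%. Of the 32-base words around the 166 sites, on average 52.5% occurred once in the genome, against 97.9% for the 1352. The part of repeats in the calls of this library was not tested. The better supported shared sites were split in the same direction. With a peak in this library, 56.9% of them (37 of 65) had a match and 22.5% (32 of 142) a tandem repeat, against 94.1% (301 of 320) and 1.94% (14 of 722) without.

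In the pooled lists, the 166 sites stood high at 48 h and lower at the other times. Their median percentile was 95.1 at 48 h, 45.8 in resting cells and 54.4 at 96 h, while the other 1352 had 29.6, 57.0 and 77.3. The pooled 48 h list includes the reads of replicate 2, whose peaks picked the 166 sites. Their high rank in that list is therefore not an independent result. The site at Fanci belonged to this group. It had scores of 21.5 in replicate 2 at 48 h and of 21.4, 19.8 and 18.04 in replicates 1 to 3 at 96 h, and no peak in the other 5 replicates.

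Over all weakly supported shared sites, a motif match was found at 84.5% (574 of 679, 81.6 to 87.2), against 87.8% of the better supported ones (338 of 385), a difference of -3.26 percentage points (Newcombe 95% interval -7.37 to 1.18). Sites are not replicates, and these intervals cover counting error only. Windows 1 kb away from the weakly supported sites had a match in 4.57%, and windows of the same 201 bases across the chromosomes held a match in 2.88%. Restricted to sites without a peak in replicate 2 at 48 h, the difference was -0.63 (-3.73 to 2.96). With that library left out and the sites chosen again from the other 8 replicates, it was -6.67 (-10.6 to -2.35), an interval without 0. Matches were on the forward strand in 49.7% of cases.

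By the number of replicates with a peak, the share with a motif match was 74.5% (41 of 55) with 1 replicate, 72.0% (67 of 93) with 2, 85.1% (120 of 141) with 3, 89.6% (164 of 183) with 4 and 87.6% (176 of 201) with 5. Without the sites called in replicate 2 at 48 h, it was 88.9%, 90.3%, 93.5%, 95.3% and 93.8%. Tandem repeats were at 19.4% of sites with 1 replicate and at 4.65% with 5, and at 4.88% and 1.52% once that library's sites were left out. Of the 14 sites without a peak in any replicate, that library included, 3 held a tandem repeat (21.4%, 4.66 to 50.8). All 6 of the sites without any replicate peak that could be tested had a match, an interval from 54.1% upward.

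**Figure D4:**
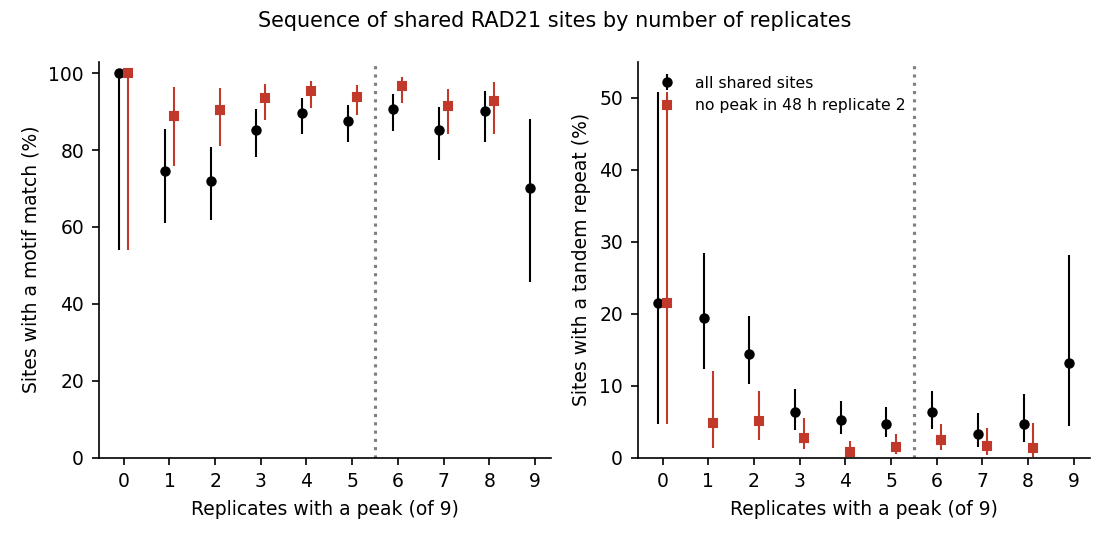
Share of shared sites with a motif match (left, chromosomes not used for training) and with a tandem repeat (right) by the number of replicates with a peak. Black circles are all shared sites, red squares those without a peak in 48 h replicate 2, bars are exact binomial 95% intervals, and the dotted line marks the limit of 5 replicates. The red squares lie at 88.9% or above in the left panel.

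Of all 1518 sites, 130 had no motif match and a peak in replicate 2 at 48 h, and 79 of these (60.8%) held a tandem repeat. Another 80 sites had no match and no peak in that library. Only 1 of these 80 held a tandem repeat, and 12 (15%, 7.99 to 24.7) lay at promoters, beside 9.02% (7.52 to 10.7) of the 1308 sites with a match (118 sites). A start lay within 1 kb of 13 of the 80 (16.3%, 8.95 to 26.2) and of 62 of the 1308 (4.74%, 3.65 to 6.04). The intervals overlap for promoters and do not for starts within 1 kb.

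Scores of different lists are not on a known common scale, so percentiles within a list were compared. The median score of the weakly supported shared sites was 16.1 in resting cells, 7.72 at 48 h and 26.3 at 96 h, and the median percentiles were 55.7, 29.6 and 75.6. The better supported sites had percentiles of 89.6, 62.3 and 94.3. The 48 h peak was the lowest ranked of the 3 at 986 weakly supported sites (65.0%) and the 96 h peak the highest ranked at 972 (64.03%). Of the better supported sites, 83.7% had the lowest rank at 48 h and 62.5% the highest at 96 h. The weakly supported sites formed 26.7% of the pooled list of resting cells, 27.2% of that at 48 h and 11.9% of that at 96 h. At the limit itself, the 430 sites with 5 replicates had median scores of 21.9, 8.55 and 35.1, and the 364 sites with 6 had 26.96, 9.47 and 43.3. These values entered the choice of the sites indirectly and are given as a description.

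At each time point, the sites with fewer replicates of that time point lay lower in its pooled list. The 628 sites without a replicate peak at 48 h had a median percentile of 20.4 in the pooled 48 h list and a highest score of 14.99. Those with 1 replicate there had 36.4, and those with 2 had 69.5. In resting cells the medians were 26.9 with none, 55.7 with 1, 77.8 with 2 and 87.3 with 3 replicates. At 96 h they were 35.1, 57.7, 78.7 and 90.9. The spread was widest at 48 h with 2 replicates, where quartiles were 48.4 and 94.3. A pooled list and its replicates share their reads, so they are not independent measurements.

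**Figure D5:**
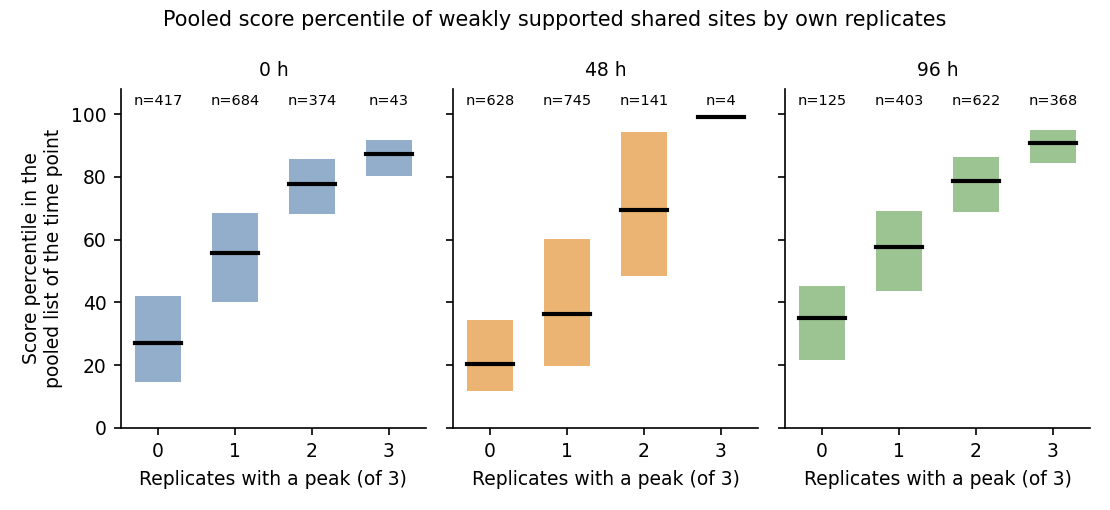
Score percentile of weakly supported shared sites in the pooled list of a time point (y axis) by how many of its 3 replicates held a peak (x axis), in 3 panels. Boxes span the quartiles, black lines are medians and n is the number of sites. Medians at 0 replicates are 26.9 at 0 h, 20.4 at 48 h and 35.1 at 96 h.

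The sites with the highest pooled percentiles were mostly supported in resting and 96 h-stimulated cells. Their percentiles at 48 h varied, from 7.29 at Idh2 to 45.8 at Etv6, 67.9 at Grasp and 96.1 at Fanci. Ranking by the median of the 3 percentiles allowed 1 low list. The highest-ranked site lay 25602 bases upstream of Idh2, which codes for the mitochondrial isocitrate dehydrogenase, at chr7:87285742-87286019. Its pooled scores were 55.1 in resting cells, 5.59 at 48 h and 84.5 at 96 h (percentiles 98.1, 7.29 and 99.4). Peaks were found in resting replicates 1 (26.2) and 3 (25.5) and in 96 h replicates 2 (35.0) and 3 (53.9), and in none at 48 h. The site in the first intron of Ssh2, a cofilin phosphatase, had pooled scores of 47.7, 6.68 and 67.7 (percentiles 96.8, 19.6 and 98.1). It was supported by resting replicates 1 and 3 and by all 3 replicates at 96 h.

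Upstream of Etv6, an ETS-family repressor needed in blood stem cells, the site at chr6:133910780-133911069 lay 74794 bases from the start. It had scores of 13.7 and 27.4 in resting replicates 1 and 3, 5.46 in 48 h replicate 2, and 21.4 and 34.5 in 96 h replicates 2 and 3. Of the 10 sites with the highest median percentile, 9 had a motif match, the exception being the repeat at Fanci. The other 6 were at Med29 (3′ untranslated exon), Pdxp (intron 1), Apoh (intron 1) and between genes nearest to Grasp, Asb5 and Fam167a, all with 5 replicates. Their pooled scores at 48 h ran from 5.59 to 12.4 (percentiles 7.29 to 67.9), and those at 96 h from 50.7 to 79.9 (percentiles 94.6 to 99.1).

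The sites without any replicate peak had low scores in each pooled list. Their median scores were 10.6 in resting cells, 6.63 at 48 h and 12.01 at 96 h (median percentiles 26.4, 17.1 and 33.2). The 5 with the highest percentiles lay upstream of Rpl38, a ribosomal protein gene, 603 bases upstream of Top1mt, the mitochondrial topoisomerase, upstream of Ern2, and in the first introns of Mettl8 and Pitpnc1. Each of the 5 had a motif match and sequence found only once in the genome over its whole window. The Top1mt site, at chr15:75509725-75509942, had pooled scores of 11.8, 8 and 17.8 (percentiles 35.0, 34.3 and 56.5).

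Support by all 3 replicates of 1 time point and by no other replicate was seen for 29 sites at 96 h, 1 site in resting cells and 0 sites at 48 h. Of all 15705 sites, 2.54%, 0.0318% and 0% had these patterns, and 29 sites are 1.91% of the weakly supported ones. The replicate lists held 2807 to 8579 peaks at 96 h, 821 to 3578 in resting cells and 1538 to 5254 at 48 h, and the part of list length in these counts was not tested. The resting site lay between genes, 100685 bases beyond the start of 3930402G23Rik, the nearest, with replicate scores of 12.9, 8.26 and 10.9. Its pooled score was 29.9 in resting cells, 8.68 at 48 h and 13.5 at 96 h (percentiles 86.3, 38.6 and 40.0). At 96 h the first was downstream of Selplg, which codes for the selectin ligand PSGL-1, with replicate scores of 11.3, 10.8 and 28.0. The others named by rank were at the start of Mterf, a mitochondrial transcription terminator, and in intron 2 of Atp5o, a subunit of ATP synthase. None of the 32-base words around the Mterf site occurred only once in the genome, so its reads could also come from a copy.

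The sites were spread over genes and intergenic sequence. Assigned by their centre, 730 (48.1%) were intergenic, 531 (35.0%) intronic, 140 (9.22%) at promoters within 3 kb upstream of a start and 73 (4.81%) within 3 kb downstream of a gene. Coding exons held 13, 3′ untranslated regions 26 and 5′ untranslated regions 5. Of sequenced base pairs, 57.9% were intergenic, 34.5% intronic and 3.43% promoters. Of all 15705 sites, 47.7% were intergenic, 35.0% intronic and 9.35% at promoters, close to the shares of the weakly supported ones. Promoters held 12.04% of the better supported sites, a difference of -2.81 percentage points (Newcombe 95% interval -5.52 to -0.28). When every site touching a promoter was counted, the interval included 0 (-5.31 to 0.05). Introns held 30.2% of the better supported sites, 4.77 points less (0.84 to 8.61). A start lay within 1 kb of 81 of the weakly supported sites (5.34%), and the median distance to the nearest start was 19517 bases, against 17545 for the better supported ones.

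Weakly supported shared sites were slightly narrower than the better supported ones, with a median width of 264 bases against 301. Over all sites of the pooled lists the median was 207. The median distance of the motif centre from the site centre was 18.5 bases, and 22.5 at the better supported sites. The GC content of the window had a median of 48.8%, compared with 46.3% in windows 1 kb away and 50.2% at the better supported sites. Another site of the pooled lists lay within 10 kb of 402 weakly supported sites (26.5%), and another shared site within 10 kb of 97 (6.39%). For the better supported sites these shares were 30.4% and 9.14%.

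The mean share of 32-base words found once in the genome was 92.9% at the weakly supported sites and 95.02% at the better supported ones. Without the sites called in replicate 2 at 48 h it was 97.9% and 98.2%. On the X chromosome, 14 of the 15 shared sites were weakly supported, and on the autosomes the percentage of shared sites that were so ranged from 55.8 on chromosome 8 to 71.4 on chromosome 5.

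Genes of B cell biology had weakly supported shared sites in several of the lists examined. A gene was counted when a site lay within 3 kb of its body, as was the case for 801 of 22219 protein-coding genes (3.61%), whose median length was 15197 bases. A long gene has more room for a site than a short one, so median lengths are given beside the counts. Among B cell transcription factors, 4 of 24 had a better supported shared site within 3 kb, against 450 of all protein-coding genes (2.03%). A weakly supported one lay at 5 of the 24 (median length 81336 bases). They were Sfpi1 (PU.1), Bcl6 with 2 sites, Pou2f1 (OCT-1), Bach2 and Pax5, and all 6 sites were in introns and had a motif match.

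The Sfpi1 site, in intron 2 at chr2:90941582-90941874, had pooled scores of 29.1, 8 and 31.6 (percentiles 85.4, 34.3 and 82.6). Its replicate peaks were at 12.5 and 13.8 in resting replicates 1 and 3 and at 20.5 and 9.08 in 96 h replicates 2 and 3. Bcl6, the repressor of germinal centre B cells, had 1 site at chr16:23982391-23982831 with pooled scores of 30.96, 8.55 and 31.6 (percentiles 87.3, 38.0 and 82.4). It was found in resting replicate 3, in 48 h replicates 1 and 3 and in 96 h replicates 2 and 3. The Pou2f1 site had 5 replicates, resting 1 and 3, 48 h 1 and 3, and 96 h 3. The values of Pax5, which maintains B cell identity, were added after they had been seen. In its intron 5, at chr4:44685435-44685679, all 3 resting replicates held a peak (9.77, 9.42 and 13.6), no replicate at 48 h did, and at 96 h only replicate 2 did (8). The pooled scores were 30.5, 9.81 and 16.4 (percentiles 86.9, 49.2 and 52.5).

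Better supported shared sites lay at 0 of 24 genes of the LPS receptor and NF-kB pathway (median length 23226 bases). Weakly supported ones lay at 2. Both of these genes code for inhibitors of NF-kB. At Tnfaip3 (A20) the site lay 87 bases upstream of a start, at chr10:18735135-18735472, with pooled scores of 16.1, 11.2 and 39.5 (percentiles 55.7, 62.3 and 89.4). It was found in 1 replicate each of resting cells (11.7) and at 48 h (15.2) and in all 3 at 96 h (14.9, 12.2 and 21.5). At Nfkbia, 2582 bases upstream of the start, 1 replicate of each time point held a peak. Pooled scores there were 11.8, 7.72 and 15.1 (percentiles 33.1, 29.6 and 47.2).

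Homing and adhesion genes had a better supported site at 0 of 14 and a weakly supported one at 4 (median length 15288 bases). These 4 were Selplg, S1pr1, the sphingosine-1-phosphate receptor for exit from lymphoid tissue, Cd44, the hyaluronan receptor, and the chemokine receptor gene Ccr7. The S1pr1 site was found in resting replicate 3 alone (11.3), with pooled scores of 23.1, 5.08 and 11.8 (percentiles 74.7, 4.49 and 30.7). The Cd44 site had no motif match, 2.94% of its words were found once in the genome, and its strongest replicate peak was in replicate 2 at 48 h (29.2). Ccr7 had no match either, at 195 bases upstream of the start.

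Plasma cell and secretion genes had a site at 2 of 15 (Cd38 and Zbtb20, median length 21572 bases). B cell receptor and coreceptor genes had one at 3 of 23, with a median length of 40805 bases. They were Vav3, Nfatc1 and Sykb, the name the annotation gives to Syk. Class switch and break repair genes had one at 1 of 21 (Nbn, median length 49547 bases). Antigen presentation genes had 1 of 16 (H2-Ob, median length 9995 bases) and cell cycle and replication genes 1 of 23 (Mcm5, median length 13426 bases). No weakly supported site was found for 14 genes of the IL-4 receptor pathway (median length 13359 bases). The same held for 17 genes of cohesin, its loader and CTCF (46267 bases). The 24 genes of other lineages taken as a control had none either. Their median length, 9098 bases, lay below that of all protein-coding genes, so this control was not matched to the other lists in length. Better supported shared sites were at 3 of the 14 IL-4 receptor pathway genes, 1 of the 17 cohesin genes and 0 of the 24 control genes. They were also at 1 of the 23 B cell receptor genes and 1 of the 23 cell cycle genes. Plasma cell, class switch and antigen presentation genes had 0. The Sykb site, in intron 7 of this tyrosine kinase of B cell receptor signalling, at chr13:52724000-52724247, had pooled scores of 15.98, 11.98 and 33.5 (percentiles 54.0, 67.2 and 84.4). It was found in resting replicates 2 (8) and 3 (7.53), in 48 h replicate 1 (9.14) and in 96 h replicates 2 (14.7) and 3 (24.9), and had a motif match. The Cd38 site, in intron 1, had pooled scores of 29.7, 11.2 and 43.4 (percentiles 86.1, 62.3 and 91.4). Its replicate peaks were in resting replicates 2 and 3 and in all 3 replicates at 96 h. The Nbn site, in intron 13 of this DNA break sensor gene, was supported by 96 h replicate 3 alone (11.3).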

How the data were processed

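RAD21 ChIP-seq peak lists of 9 replicates and 3 pooled samples were used. The 9 input libraries served the authors as controls. Per the study's methods, the authors mapped with Bowtie 2 on mm9, thinned every alignment to the same number of unique positions, and ran MACS 2 with the inputs at a false discovery rate of 0.05. The deposited unit is a score per peak, whose statistic is not named, and read counts behind a peak are unknown. The sites and gene lists were chosen with earlier results of these data known.

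Peaks were joined and counted with Python 3.11.15 and NumPy 2.4.6, and intervals calculated with SciPy 1.17.1. A motif match was a score above the level passed by 5% of windows 1 kb from the sites on the training chromosomes, within 100 bp of the centre. Features came from protein-coding transcripts of GENCODE M1, which is on mm9. Sites named were the 10 with the highest median percentile in the pooled lists, 5 of those without a replicate peak, up to 3 per time point supported by that time point alone, those at the limit, and those within 3 kb of listed genes. Of the listed genes, 3 were matched by an older symbol and 1 could not be matched among protein-coding genes. The planned tests between time points of shares and of sites per 100 peaks are not reported, since the same peak calls chose the sites. The counting of replicate support, the motif search and the words found once were tested on simulated data. Tandem repeats, features, gene lists and intervals were not. Replicate p-values measure the spread between cell pools of 12 mice.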

Additional observations from a re-analysis of the deposited data

How the results depend on the processing

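The number of weakly supported shared sites moved most with the limit and the pooled scores. It was 668 at no more than 3 replicates and 199 with each pooled list limited to its peaks above the median score. It was 1136 with the pooled lists cut to equal length and 2177 with the replicate lists so cut. It lay between 1551 and 1880 when 1 replicate was left out with the limit of 5 kept. The difference in share between 96 h and 48 h ran from 28.4 to 50.6 percentage points with 1 replicate left out. The differences in sites per 100 peaks and in median percentile, -1.56 and -4.86, ran from -10.6 to 3.10 and from -9.97 to 9.31. They turned to 1.06 and 10.5 with replicate lists of equal length, which gave the 2177 sites. The turn to 9.99 in percentile without replicate 2 at 48 h in the test, with the sites kept, was an alternative added after seeing the data, as was leaving out the sites called in it. The replicate block left the differences at 37.6, -1.56 and -4.86 and gave p = 0.583 for the percentile (exact permutation within replicate numbers), where it changed no call. Correlations of same-numbered replicates over sites ran from -0.14 to 0.23. Whether such replicates share more than a number was not tested.

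The difference in motif share was -7.49 (-13.6 to -1.35) with the plain word CNAGNNGGC on either strand on the chromosomes not used for training (37.7% against 45.2%, and 9.28% and 6.75% in windows 1 kb away) and -4.33 (-8.44 to -0.25) with it on all chromosomes. It was -12.0 (-22.7 to -2.78) with pooled peaks above the median score, -4.45 (-8.79 to -0.22) at no more than 4 replicates, and between -6.67 (without replicate 2 at 48 h) and 2.25 (without replicate 2 at 96 h) with 1 replicate left out. The intervals of these first 4 values and of -6.67 exclude 0, unlike that of the difference in the report. That in promoter share ran from -3.67 to -2.14 with 1 replicate left out. It was -1.34 (-3.29 to 0.41) within 1 kb before a start, -1.94 (-4.35 to 0.52) at no more than 4 replicates and -2.03 (-6.63 to 3.53) with pooled peaks above the median score, with intervals that include 0. The difference in words found once was -2.08, -3.87 at no more than 4 replicates, and -0.33 without the sites of replicate 2 at 48 h. The causes of these shifts were not tested.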
